A study of Mus musculus with 30 samples.

Results

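Acute phase proteins are plasma proteins whose synthesis changes in inflammation, and metallothioneins are small metal-binding proteins induced by many of the same stimuli. This set holds 10 such mouse genes, named in advance by symbol: Saa1, Saa2, Saa3, Orm1, Orm2, Hp, Hpx, Crp, Mt1 and Mt2. All 10 were found by gene identifier among the 48709 genes of each deposited count table. RNA-seq libraries were made from brain, kidney, liver, quadriceps muscle and spleen of adult C57BL/6 mice. Each tissue had 3 wild-type (WT) libraries and 3 from mice heterozygous for Ctcf (Ctcf+/-), 30 libraries in all. The heterozygotes carry 1 working copy of Ctcf, whose product, a DNA-binding zinc finger factor, organises chromatin loops. How the other copy was inactivated, the age in weeks and the sex of the mice are not given in the sources used here. The design names 3 mice of each genotype and 5 tissues, so libraries of different tissues share mice.

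In the acute phase response, macrophages and other cells release interleukin-6, interleukin-1 and tumour necrosis factor, and hepatocytes answer through STAT3, C/EBP and NF-kB by secreting positive acute phase proteins. Serum amyloid A proteins (Saa1, Saa2, Saa3) travel with high-density lipoprotein, and Saa3 is made largely outside the liver, by macrophages and adipocytes among others. Alpha-1-acid glycoproteins (Orm1, Orm2) bind small lipophilic molecules, haptoglobin (Hp) captures free haemoglobin and haemopexin (Hpx) captures free haem. C-reactive protein (Crp) is a major acute phase protein in humans but responds little in mice. Metallothioneins 1 and 2 hold zinc and copper, and their genes are switched on by metals through the factor MTF1, which binds metal response elements, and by glucocorticoids.

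The RefSeq promoter table (build GRCm38.p6) gave the window from 250 bases before to 50 bases after the transcription start for 8 of the 10 genes. Orm1 and Hp were not matched. The metallothionein promoters are shown because the metal response element sets them apart from the other windows, and the Saa1 and Saa2 promoters because they are near copies of each other. Each is the strand of the gene, 5′ to 3′, for the 250 bases before the start. Capitals mark metal response elements in Mt1 and Mt2 and the C/EBP motif in Saa1 and Saa2.
Mt1 promoter, chr8:94178839-94179088, plus strand: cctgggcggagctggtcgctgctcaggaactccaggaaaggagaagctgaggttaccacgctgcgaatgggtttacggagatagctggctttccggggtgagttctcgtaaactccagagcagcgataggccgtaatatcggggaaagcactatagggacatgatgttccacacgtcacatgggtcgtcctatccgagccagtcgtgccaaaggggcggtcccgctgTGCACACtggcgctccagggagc
Mt2 promoter, chr8:94172368-94172617, plus strand: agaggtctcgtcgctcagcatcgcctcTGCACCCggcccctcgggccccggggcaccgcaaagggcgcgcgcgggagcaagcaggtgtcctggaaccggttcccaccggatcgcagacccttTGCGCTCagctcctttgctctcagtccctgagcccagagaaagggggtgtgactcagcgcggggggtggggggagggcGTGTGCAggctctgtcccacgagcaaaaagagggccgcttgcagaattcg
Saa1 promoter, chr7:46742981-46743230, minus strand: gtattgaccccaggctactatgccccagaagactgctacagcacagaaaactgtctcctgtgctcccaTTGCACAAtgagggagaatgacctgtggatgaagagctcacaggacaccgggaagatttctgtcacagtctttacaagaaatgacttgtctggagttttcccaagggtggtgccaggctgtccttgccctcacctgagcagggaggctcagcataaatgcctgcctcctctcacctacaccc
Saa2 promoter, chr7:46751583-46751832, plus strand: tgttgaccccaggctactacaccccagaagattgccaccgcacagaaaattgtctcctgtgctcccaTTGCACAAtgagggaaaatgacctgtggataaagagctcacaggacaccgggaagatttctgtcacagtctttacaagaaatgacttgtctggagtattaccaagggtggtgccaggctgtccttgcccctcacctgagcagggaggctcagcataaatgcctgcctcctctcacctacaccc

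The metal response element was searched on both strands as TGCACNC or TGCGCNC. Mt2 had 4 matches, at -223, -128, -50 and 4 counted from 0 at the RefSeq start, and Mt1 had 3, at -23, 2 and 20, so that 1 of the Mt2 matches and 2 of the Mt1 matches lie past the stretches shown. The other 6 windows had 0. Of 32851 promoter windows of the same length, 25.7% held at least 1 match and 1.97% held 3 or more. The C/EBP motif TTGCNNAA had 1 match each in Saa1, Saa2, Saa3, Orm2, Hpx and Mt2 and none in Crp and Mt1, against 10.8% of all windows. Mt1 had 1 match to the glucocorticoid response element (GRE), at -94, which 0.475% of all windows held. The letters of the STAT3 motif TTCNNNGAA (8.3% of all windows) and of the NF-kB motif (1.63%) were in none of the 8 windows. No 2 matches in a window overlapped, and the matches are a description of the letters only. The Saa1 and Saa2 windows were identical at 95.3% of aligned positions, and those of Mt1 and Mt2 at 50.6%.

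The genes lie on 4 chromosomes of GRCm38. Saa1 (ENSMUSG00000074115, chromosome 7, 46740497 to 46742980), Saa2 (ENSMUSG00000057465, 46751790 to 46754313) and Saa3 (ENSMUSG00000040026, 46711998 to 46715700) form a cluster on chromosome 7. Hpx (ENSMUSG00000030895, 105591613 to 105600137) lies far along the same chromosome. Orm1 (ENSMUSG00000039196, 63344560 to 63348163) and Orm2 (ENSMUSG00000061540, 63362449 to 63365878) are neighbours on chromosome 4. Crp (ENSMUSG00000037942, 172698055 to 172833031) is on chromosome 1. Mt1 (ENSMUSG00000031765, 94179082 to 94180327), Mt2 (ENSMUSG00000031762, 94172664 to 94173568) and Hp (ENSMUSG00000031722, 109575128 to 109579172) are on chromosome 8, which also carries Ctcf, at 11.5 Mb for the metallothioneins and 3.89 Mb for Hp.

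Sequence copies and overlaps limit some counts, because fragments that align to several places or overlap several genes were dropped. Of the 50-base stretches of the annotated transcripts, 31.5% in Saa1 and 30.0% in Saa2 also occurred in another Saa gene. In Orm1, 20.4% also occurred in another Orm gene, and in Orm2, 22.7% also occurred in Orm1, Orm3 or Gm11212. No such stretch occurred in Hp, Hpx or Mt1. Counts of Saa1, Saa2, Orm1 and Orm2 can therefore be understated, by an amount that was not measured, which leaves the split within each pair uncertain. For Mt2, 432 of the 588 exon bases are overlapped by the antisense gene Gm45774, and counting ignored strand, which leaves 156 exon bases that belong to Mt2 alone.

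Library totals ranged from 49.8 to 131.6 M counts. Ctcf was lower in every heterozygous library than in every WT library of its tissue: in liver, for example, WT libraries held 25.8 to 27.4 CPM (counts per library of 1 M) and heterozygous libraries 13.4 to 19.6. Marker genes fitted the labelled tissues: summed hepatocyte markers reached 165000 to 224000 CPM in liver and summed skeletal muscle markers 146000 to 179000 CPM in muscle. Markers of other tissues were also present. In spleen the 12 hepatocyte markers summed to 42.0 to 54.5 CPM in WT and 0.52 to 0.95 CPM in heterozygous libraries, and the 9 kidney tubule markers to 1.34 to 2.28 and 15.2 to 29.1 CPM. In muscle the kidney tubule markers summed to 11.8 to 81.4 CPM in WT and 0.127 to 6.69 CPM in heterozygous libraries. These libraries stand apart in the same direction as the genotype, and hepatocyte, adipocyte and neutrophil values are given beside the results of the set they move with. The part of the kidney tubule RNA was not tested. In bulk RNA, fewer cells of a type and less RNA per cell cannot be told apart.

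All 8 acute phase genes had their highest WT mean in liver. Levels below are CPM scaled by TMM (a library scaling factor) within the tissue, and the order of tissues was tested in the 15 WT libraries alone with edgeR's quasi-likelihood test. In the 3 WT livers, Hpx averaged 4000 ± 950 CPM and Hp 2700 ± 1100 CPM (SD, n = 3), with Orm1 at 736 ± 111, Crp at 405 ± 29, Saa1 at 32.4 ± 17.2, Orm2 at 20.7 ± 4.72, Saa2 at 16.6 ± 8.92 and Saa3 at 5.09 ± 2.35 CPM. Per kilobase of exon, over all 6 livers, Hpx stood at 2610 CPM, Hp at 1340, Orm1 at 957, Crp at 122, Orm2 at 22.6 and Saa1 at 12.1. By this length-scaled level, the haem and haemoglobin scavengers outranked the serum amyloids.

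The drop from liver to the next tissue differed in size between genes. For Hpx, the WT spleen came next at 1.91 CPM, a log2 difference of 12.20 between liver and spleen (adjusted p = 8.87e-09), or 11.03 with scaling by total counts. Those WT spleens held hepatocyte marker sums of 42.0 to 54.5 CPM, and the heterozygous spleens, with 0.52 to 0.95 CPM, averaged 0.152 CPM of Hpx, under the WT kidney (0.956 CPM) and brain (0.764 CPM). For Crp the next was kidney at 0.262 CPM (log2 difference 11.54, adjusted p = 8.02e-11, or 10.54 with total counts), and for Orm1 kidney at 1.77 CPM (9.67, adjusted p = 1.79e-07, or 8.67 with total counts). Hp had a second site: WT spleen averaged 71.3 CPM, 6.42 log2 units under liver (adjusted p = 4.78e-06, or 5.29 with total counts) and 3.27 above kidney (adjusted p = 0.000647). The differences with TMM over all tissues need not equal the ratio of the tissue-scaled means.

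Saa3 showed the smallest gap of the 8 genes. WT livers held 5.53, 7.20 and 2.55 CPM and WT spleens 5.16, 2.70 and 0.593 CPM, so the tissues overlapped. The liver to spleen difference was 2.05 log2 units with TMM over all tissues (adjusted p = 0.0229) and 0.90 with scaling by total counts (adjusted p = 0.267), which ends the call. Spleen stood 4.66 log2 units above kidney (adjusted p = 0.000329). Orm2 had the same order at its top, with 20.7 CPM in liver, 1.27 in spleen and 0.0292 in kidney. Saa1 and Saa2 outside liver stayed at or below 0.401 CPM in all 24 libraries, and none of their neighbouring pairs below liver passed the test.

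**Figure D1:**
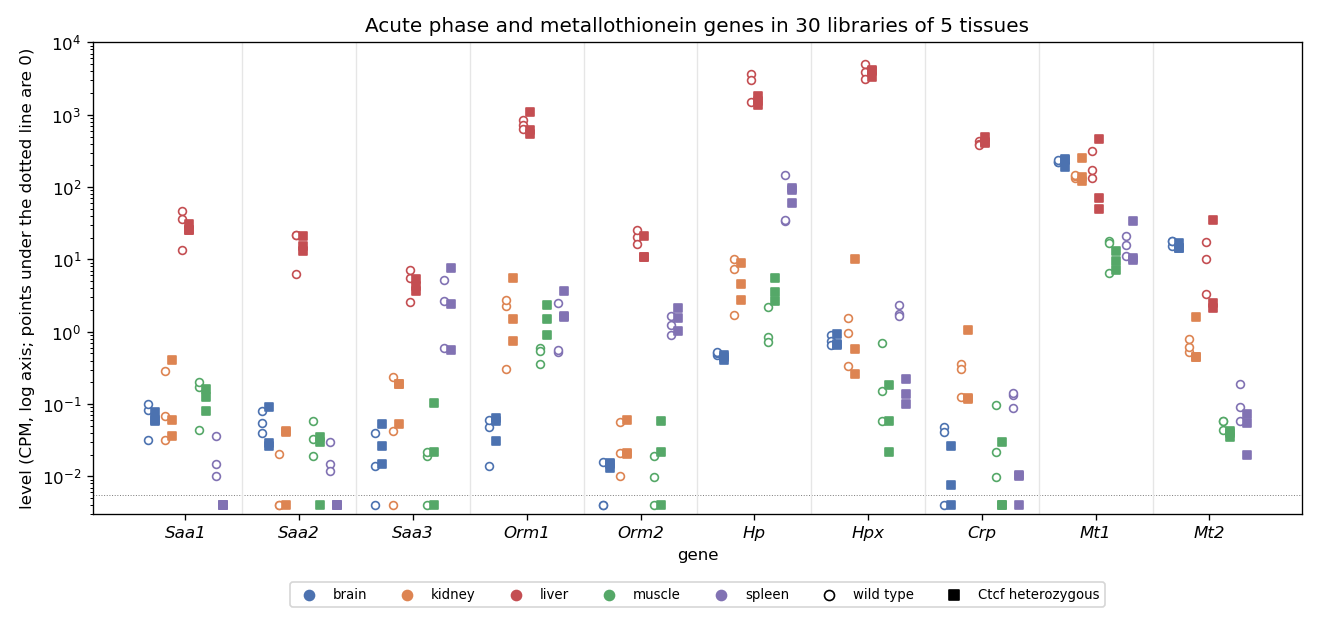
Level of each gene (CPM, log axis) in all 30 libraries, coloured by tissue, with open circles for wild type and filled squares for Ctcf heterozygous libraries. The 8 acute phase genes have their highest wild-type mean in liver, with Saa3 in spleen overlapping liver. The Mt1 libraries of brain, kidney and liver overlap, with the widest spread in liver.

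Over the 10 genes there are 40 pairs of neighbouring tissues in each gene's own order of WT levels, and 18 of them passed the test in that direction. Over all genes the share of neighbouring pairs called was 48.1%. Below the first step, Orm1 in kidney, spleen and muscle, Hpx in spleen, kidney, brain and muscle, and Crp in spleen, muscle and brain were not called between neighbours. For Hpx the 3 WT spleens were all above the 3 WT kidneys, although that pair did not pass (log2 difference 0.80, adjusted p = 0.223). Hp was called from muscle to brain (1.26 against 0.503 CPM, log2 difference 2.59, adjusted p = 0.00665), but not with scaling by total counts (1.33, adjusted p = 0.105). Crp from kidney to spleen was called with TMM (1.28, adjusted p = 0.023) but not with total counts (1.10, adjusted p = 0.0538). Hp from kidney to muscle was called with total counts (2.35, adjusted p = 0.00528) but not with TMM (1.18, adjusted p = 0.139).

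Mt1 and Mt2 followed another order: by tissue-scaled CPM, WT brain had the highest mean, though its order with liver turned with the scaling. The 3 WT brains held 222, 223 and 240 CPM of Mt1, and the heterozygous brains 243, 190 and 236 CPM. Over all 6 brains the highest was 1.28 times the lowest. Kidney ranged from 121 to 253 CPM and liver from 50.2 to 459 CPM, a 9.14-fold range. Spleen ranged from 9.90 to 34 CPM and muscle from 6.40 to 18.0 CPM.

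Among WT libraries, Mt1 was 3.34 log2 units higher in kidney than in spleen (adjusted p = 2.01e-06). Brain and liver, and spleen and muscle, cannot be ordered: with TMM over all tissues the brain minus liver difference was -0.94 (adjusted p = 0.0276), and with total counts it was 0.16 (adjusted p = 0.69). For spleen minus muscle the values were -1.13 (adjusted p = 0.0111) and 0.18 (adjusted p = 0.647). Liver exceeded kidney by 1.53 with TMM (adjusted p = 0.00234) and by 0.54 with total counts (adjusted p = 0.183). The order of the tissues at each end therefore depends on the scaling.

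Mt2 averaged 17.0 CPM in WT brain, 10.3 in liver, 0.642 in kidney, 0.114 in spleen and 0.0532 in muscle. Liver exceeded kidney by 4.97 log2 units (adjusted p = 8.42e-07), or by 3.99 with total counts. The ratio of Mt1 to Mt2 counts was 12.5 to 16.5 in the brain libraries and 12.9 to 40.2 in liver, but 160 to 312 in kidney, 146 to 327 in muscle and 83.4 to 617 in spleen. The highest spleen ratios rest on as few as 2 Mt2 counts. Fragments that overlap both Mt2 and Gm45774 were not counted, how many were lost was not measured, and the part of this overlap in the ratios was not tested.

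**Figure D2:**
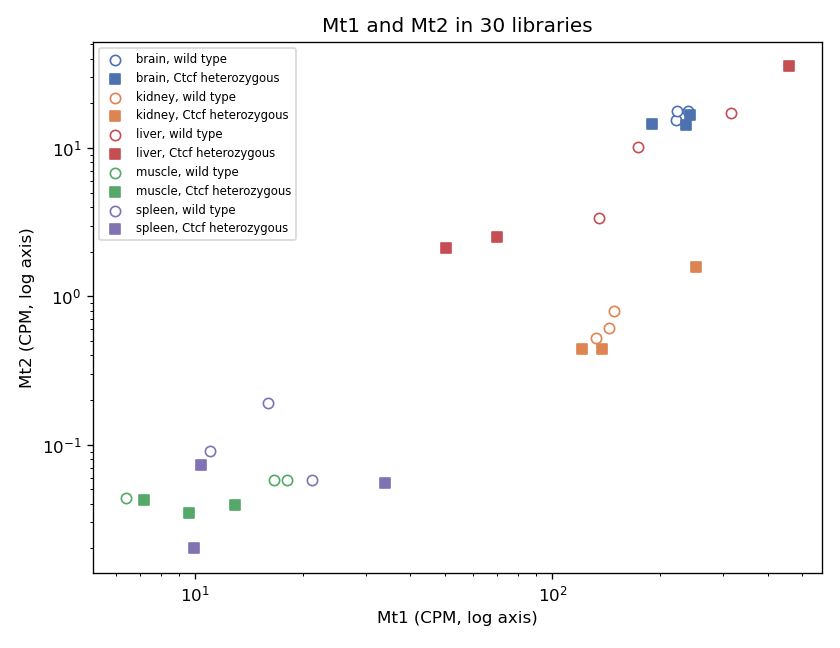
Mt1 against Mt2 (CPM, both log axes) in the 30 libraries, by tissue (colour) and genotype (open circles wild type, filled squares Ctcf heterozygous). Brain libraries form a tight group, liver libraries spread along a line, and kidney and muscle sit at higher Mt1 to Mt2 ratios.

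The comparison of genotypes asks whether loss of 1 Ctcf copy shifts gene expression in each tissue. In liver, the main site of synthesis, all 10 genes were tested and 0 passed (edgeR, adjusted p under 0.05), where 0.0193% of all genes tested in liver were called. None of the 10 separated the groups completely, against 8.97% of all genes. At an unadjusted p under 0.05, 1 of the 10 passed, against 4.56% of all genes, and DESeq2 called 0 of the 10, against 0.52%. The median log2 fold change, heterozygous over WT, was -0.09 over the 10 genes and -0.0109 over all genes tested in liver.

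Hp, the haemoglobin scavenger, came nearest. WT livers held 3600, 3030 and 1480 CPM and heterozygous livers 1570, 1840 and 1380 CPM. WT replicates 1 and 2 were high, while WT replicate 3 lay inside the heterozygous range. The difference was -0.76 ± 0.302 log2 units (SE), with an edgeR adjusted p of 1, and the exact permutation p was 0.3.

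Orm2 read 20.6, 25.5 and 16.1 CPM in WT and 10.8, 10.8 and 21.1 CPM in heterozygous livers, a log2 fold change of -0.55 ± 0.286. Its neighbour Orm1 read 851, 726 and 630 against 546, 620 and 1080 CPM (0.02 ± 0.261). In both genes heterozygous replicate 3 stood above the other 2 heterozygous livers, so the groups overlapped.

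The serum amyloids were lowest in 1 WT liver. Saa1 read 47.3, 36.4 and 13.6 CPM in WT and 25.8, 31.1 and 25.2 CPM in heterozygous livers. Saa2 read 21.7, 21.9 and 6.30 against 15.1, 21.1 and 12.9 CPM, and Saa3 5.53, 7.20 and 2.55 against 4.35, 5.32 and 3.70 CPM. WT replicate 3 was the lowest of the 6 livers for all 3 genes, and the heterozygous livers lay between the WT extremes. Summed hepatocyte markers stood at 168000 CPM in that liver and at 165000 to 224000 CPM in the other 5. WT replicate 1, the highest liver for Saa1, Hp and Hpx, had the highest neutrophil marker sum, 10.2 CPM against 3.76 to 5.42 CPM, whose part was not tested.

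Hpx and Crp were the steadiest. Hpx read 5010, 3890 and 3120 CPM in WT and 3340, 4000 and 4130 CPM in heterozygous livers (log2 fold change -0.07 ± 0.201). Crp read 437, 398 and 381 against 426, 401 and 487 CPM (0.11 ± 0.139), and its highest liver was 1.28 times its lowest. The 95% interval of the Crp difference ran from -0.207 to 0.429.

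The metallothioneins varied most within the groups. Mt1 read 317, 135 and 174 CPM in WT and 50.2, 70.1 and 459 CPM in heterozygous livers. Mt2 read 17.3, 3.36 and 10.2 against 2.13, 2.52 and 35.5 CPM. Heterozygous replicate 3 was the highest of the 6 livers for both genes and the other 2 heterozygous livers were the lowest. The fitted log2 fold changes were -0.11 ± 0.76 for Mt1 and 0.37 ± 1.03 for Mt2, and without heterozygous replicate 3 they were -1.80 and -2.15, still short of the threshold in edgeR's test.

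**Figure D3:**
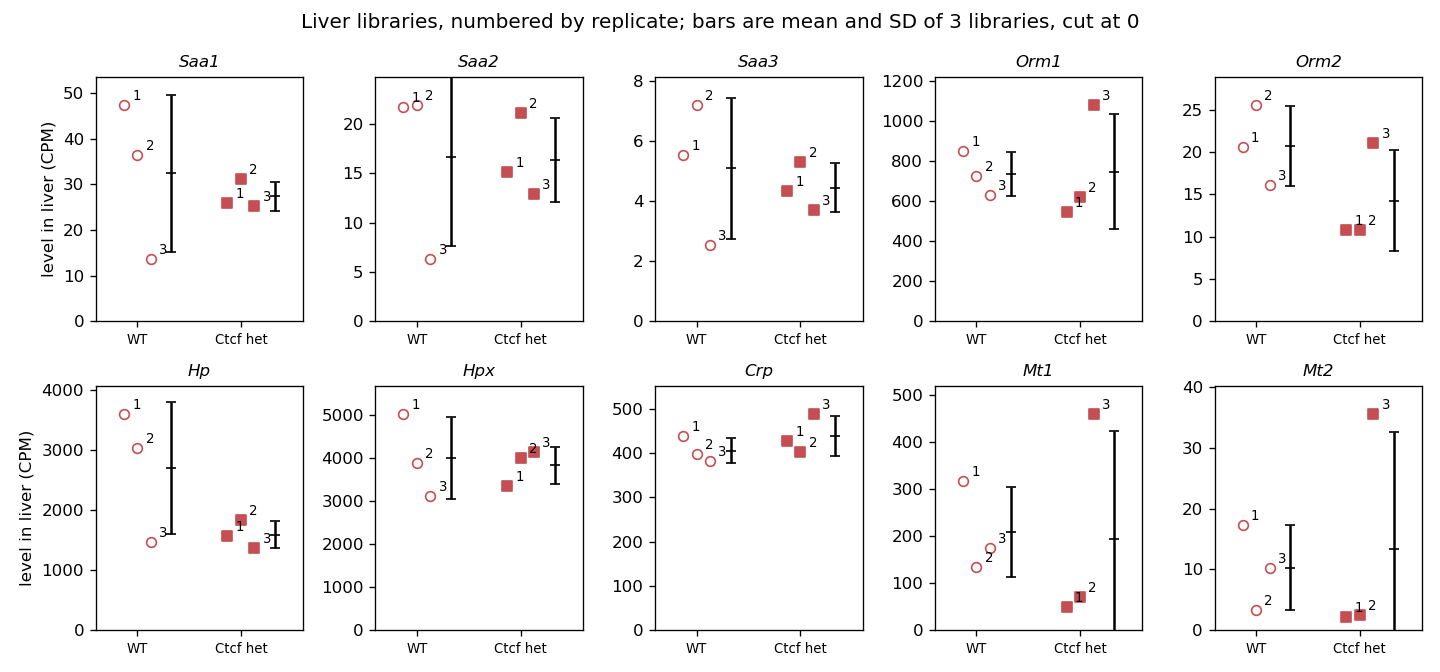
Level in each liver library (CPM, linear axis from 0) for the 10 genes, with replicate numbers beside the points and the mean and SD of 3 libraries per genotype. Saa1, Saa2 and Saa3 share a low wild-type replicate 3, and Mt1 and Mt2 share a high heterozygous replicate 3.

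Mt1 with Mt2, and Saa1 with Saa2, correlated across livers. Across the 6 livers, on log2 CPM, Mt1 and Mt2 correlated at Pearson r = 0.963 (exact permutation p = 0.00278, adjusted over 12 relations 0.0167) and Spearman rho = 1 (p = 0.00278, adjusted 0.0333), with r = 0.933 after leaving out the 2 livers farthest from the median of Mt1. Saa1 and Saa2 correlated at r = 0.949 (exact permutation p = 0.00278, adjusted 0.0167) and rho = 0.943 (p = 0.0167, adjusted 0.05), with r = 0.93 without the 2 farthest. Fragments that align to both Saa1 and Saa2 were dropped, and the part of their near-identical sequence in this r was not tested.

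Other relations of Saa1 did not pass after adjustment. Saa1 and Hp gave r = 0.802 (exact permutation p = 0.0375, adjusted 0.0778) and rho = 0.943 (p = 0.0167, adjusted 0.05), and at 0.961 without the 2 farthest livers. Saa1 and Saa3 gave r = 0.893 (exact permutation p = 0.0208, adjusted 0.0625) and rho = 0.943 (p = 0.0167, adjusted 0.05). For Saa1 and Hpx r was 0.852 (exact permutation p = 0.0389, adjusted 0.0778), rho was 0.6, and r was 0.248 without the 2 farthest livers, so the relation rests on those livers. Saa1 gave r = 0.29 with Orm1 (exact permutation p = 0.578, rho = 0.143) and r = 0.28 with Orm2 (exact permutation p = 0.624, rho = 0.2). Saa1 and Mt1 gave r = 0.0833 (exact permutation p = 0.886) and rho = -0.0857. These 6 livers include both genotypes.

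In the other tissues, Mt1 and Mt2 correlated at r = 0.957 in kidney (exact permutation p = 0.00833, adjusted 0.0333), with rho = 0.829 (p = 0.0583, adjusted 0.14) and r = 0.786 without the 2 farthest libraries. The values were r = 0.465 and rho = 0.314 in brain, r = 0.631 and rho = 0.429 in muscle, and r = 0.0883 and rho = 0.0857 in spleen. The smallest exact permutation p of these 3 tissues was 0.196. Without the 2 farthest libraries r was -0.0298 in brain, 0.602 in muscle and 0.871 in spleen. Mt2 counts in muscle and spleen were 16 or fewer per library, and the part of depth in these values was not tested.

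The genes most like Saa1 over the 6 livers, among 12167 genes, were Cfdp1 (r = 0.998), Cwc15 (r = 0.994) and Brk1 (r = 0.993). The genes most like Mt1, over deviations from the tissue and genotype mean in 30 libraries and among 9027 genes, were Ap5s1 (r = 0.835), Slc9a3r1 (r = 0.824) and Nit2 (r = 0.82). These values describe the top of a long list, the libraries of 1 mouse share that mouse, and no p is given.

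In spleen, Hpx was the only gene of the set that passed the test. WT spleens held 2.35, 1.74 and 1.64 CPM (161, 145 and 163 counts) and heterozygous spleens 0.1, 0.22 and 0.136 CPM (10, 16 and 13 counts). Every heterozygous spleen was below every WT spleen. The log2 fold change was -3.66 ± 0.388 (edgeR, adjusted p = 0.029), and the exact permutation p was 0.1, the smallest that 3 against 3 can give. In spleen, 6 of the 10 genes were tested, 1 was called and 1 separated the groups, against 0.242% and 6.65% of all genes tested there. At an unadjusted p under 0.05, 1 of the 6 passed, against 3.52% of all genes, and DESeq2 called 1, against 1.01%.

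The call for Hpx did not hold throughout. The adjusted p was 0.149 with at least 10 counts required in every library and 0.0776 in a fit of all 30 libraries. With 1 spleen left out it ran from 0.0384 to 0.243. Among those fits it was under 0.05 only without heterozygous replicate 2, and the call was lost when any other spleen was left out. The log2 fold change stayed between -4.00 and -3.42 when 1 spleen was left out.

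Other liver proteins moved with Hpx in these spleens. Albumin, the main plasma protein, read 30.5, 23.9 and 24.0 CPM in WT and 0.0200, 0.0689 and 0.104 CPM in heterozygous spleens. The 12 hepatocyte markers, which include Alb and Ahsg, summed to 42.0 to 54.5 CPM in WT and 0.52 to 0.95 CPM in heterozygous spleens. All 12 separated the groups downward and 10 were called lower, and Ahsg, which encodes the plasma protein fetuin-A, read 3.46 to 4.46 CPM in WT and 0 in all 3 heterozygous spleens. Hpx counts equalled 6.83% to 7.70% of the Alb counts in the WT spleens and 2.50% to 3.86% in the 6 livers. In the heterozygous spleens, with 2, 5 and 10 Alb counts, Hpx had more counts than Alb. The part of hepatocyte RNA in the Hpx difference was not tested.

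Crp and the 2 liver serum amyloids were too low in spleen to be tested. Crp had 31 counts over the WT spleens and 2 over the heterozygous spleens, a ratio of 6.22% (exact 95% interval 0.722% to 24.5%, counting error only). Crp separated the groups. Saa1 and Saa2 each had 5 counts in all WT spleens and 0 in the heterozygous spleens, at or under the floor of 3 counts per library.

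The remaining spleen genes overlapped between genotypes. Hp read 145, 33.5 and 35.5 CPM in WT and 91.3, 95.8 and 59.9 CPM in heterozygous spleens (log2 fold change 0.21 ± 0.586). Hp is stored by neutrophils as well as made by liver, and the 10 neutrophil markers summed to 3560, 670 and 778 CPM in WT and 5460, 2880 and 2420 CPM in heterozygous spleens. WT replicate 1 was the highest WT spleen in both measures, and the part of neutrophil RNA was not tested.

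Saa3 read 5.16, 2.70 and 0.593 CPM in WT and 2.45, 7.53 and 0.564 CPM in heterozygous spleens. Orm1 read 2.48, 0.529 and 0.563 against 3.60, 1.67 and 1.6 CPM (0.95 ± 0.687), and Orm2 0.904, 1.65 and 1.25 against 1.54, 1.01 and 2.11 CPM. For Mt1 the values were 21.2, 16.0 and 11 against 9.90, 34 and 10.4 CPM. Heterozygous replicate 2 was highest for Saa3 and Mt1, and in that spleen pancreatic acinar markers summed to 2150 CPM against 23.7 to 275 CPM in the other 5, whose part was not tested.

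In muscle, Orm1 and Hp separated the groups. Orm1 read 0.595, 0.533 and 0.362 CPM in WT and 1.49, 0.898 and 2.31 CPM in heterozygous muscles. Hp read 2.23, 0.852 and 0.712 against 5.51, 2.69 and 3.51 CPM. Every heterozygous muscle was above every WT muscle for both genes. The log2 fold changes were 1.65 ± 0.377 for Orm1 (edgeR, adjusted p = 0.346) and 1.62 ± 0.457 for Hp (adjusted p = 0.469), so neither passed. The exact permutation p was 0.1 for each.

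DESeq2 called both genes in muscle (adjusted p = 0.00453 for Orm1 and 0.015 for Hp), where it called 159 genes, 1.01% of those it gave an adjusted p. Of the 10 genes, 5 were tested, 0 were called by edgeR and 2 separated the groups upward, against 0.0249% called and 12.2% separated in either direction among all genes tested in muscle. At an unadjusted p under 0.05, 2 of the 5 passed, against 6.45% of all genes.

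Adipocyte markers moved with both genes. The 7 markers summed to 344, 276 and 184 CPM in WT and 706, 382 and 551 CPM in heterozygous muscles, and 5 of the 7 separated the groups upward. Adipoq, the adipocyte hormone adiponectin, read 7.90, 7.06 and 2.36 CPM in WT and 36.5, 12.8 and 22.8 CPM in heterozygous muscles. Fat cells are known to express Hp and Orm1, and the part of adipocyte RNA in the 2 differences was not tested.

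The other 3 genes tested in muscle overlapped between genotypes. Mt1 read 18.0, 16.6 and 6.40 CPM in WT and 12.9, 9.63 and 7.18 CPM in heterozygous muscles (log2 fold change -0.47 ± 0.373). Hpx read 0.691, 0.0581 and 0.153 against 0.0592, 0.184 and 0.0214 CPM, and its high value was WT replicate 1, where Alb stood at 9.66 CPM against 0.0296 to 1.46 CPM in the other 5. Saa1 read 0.0438 to 0.203 CPM over the 6 muscles. Of the genes too low to be tested, Mt2 separated the groups in CPM but not in raw counts. WT muscles held 6, 6 and 4 counts (0.0576, 0.0581 and 0.0438 CPM) and heterozygous muscles 4, 3 and 4 (0.0394, 0.0345 and 0.0427 CPM).

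In kidney, 7 of the 10 genes were tested, 0 were called and 0 separated the groups, against 0.0211% and 11.4% of all genes tested there. With the paired replicate numbers as a block, 21 in place of 4 of all genes tested in kidney were called. At an unadjusted p under 0.05, 0 of the 7 passed, against 6.44% of all genes, and DESeq2 called 0, against 0.867%. Heterozygous replicate 3 was the highest kidney for Orm1, Hpx, Crp, Mt1 and Mt2.

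Hpx read 1.57, 0.338 and 0.957 CPM in WT and 0.264, 0.575 and 10.1 CPM in heterozygous kidneys (log2 fold change 1.94 ± 1.18). Alb in the same kidneys read 41.3, 10.2 and 26.7 against 8.79, 11.9 and 218 CPM, the same order of the 6 libraries as for Hpx. Hpx counts equalled 3% to 4.83% of Alb counts in the 6 kidneys, beside 2.50% to 3.86% in the livers. Crp read 0.357, 0.124 and 0.305 against 0.116, 0.120 and 1.04 CPM. Without heterozygous replicate 3 the log2 fold changes turned to -1.20 for Hpx and -1.15 for Crp. The part of hepatocyte RNA in these levels was not tested.

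Orm1 in kidney read 2.24, 2.76 and 0.305 CPM in WT and 0.739, 1.51 and 5.53 CPM in heterozygous libraries, and turned from 0.56 to -0.66 without heterozygous replicate 3. Hp read 10.2, 7.39 and 1.72 against 4.6, 2.77 and 9.03 CPM (log2 fold change -0.23 ± 0.602). The adipocyte markers summed to 674, 415 and 82.4 against 339, 241 and 545 CPM, the same order of libraries as Hp. WT replicate 3, lowest in both Hp and the adipocyte sum, had a skeletal muscle marker sum of 169 CPM, and heterozygous replicate 3 had 216 CPM, against 7.72 to 10.6 CPM in the other 4 kidneys. The part of fat in the Hp level was not tested.

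The kidney metallothioneins showed 1 high library. Mt1 read 132, 144 and 149 CPM in WT and 121, 138 and 253 CPM in heterozygous kidneys, and Mt2 0.524, 0.608 and 0.794 against 0.443, 0.443 and 1.58 CPM. The log2 fold changes were 0.27 ± 0.246 and 0.36 ± 0.499, and they turned to -0.13 and -0.54 without heterozygous replicate 3.

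**Figure D4:**
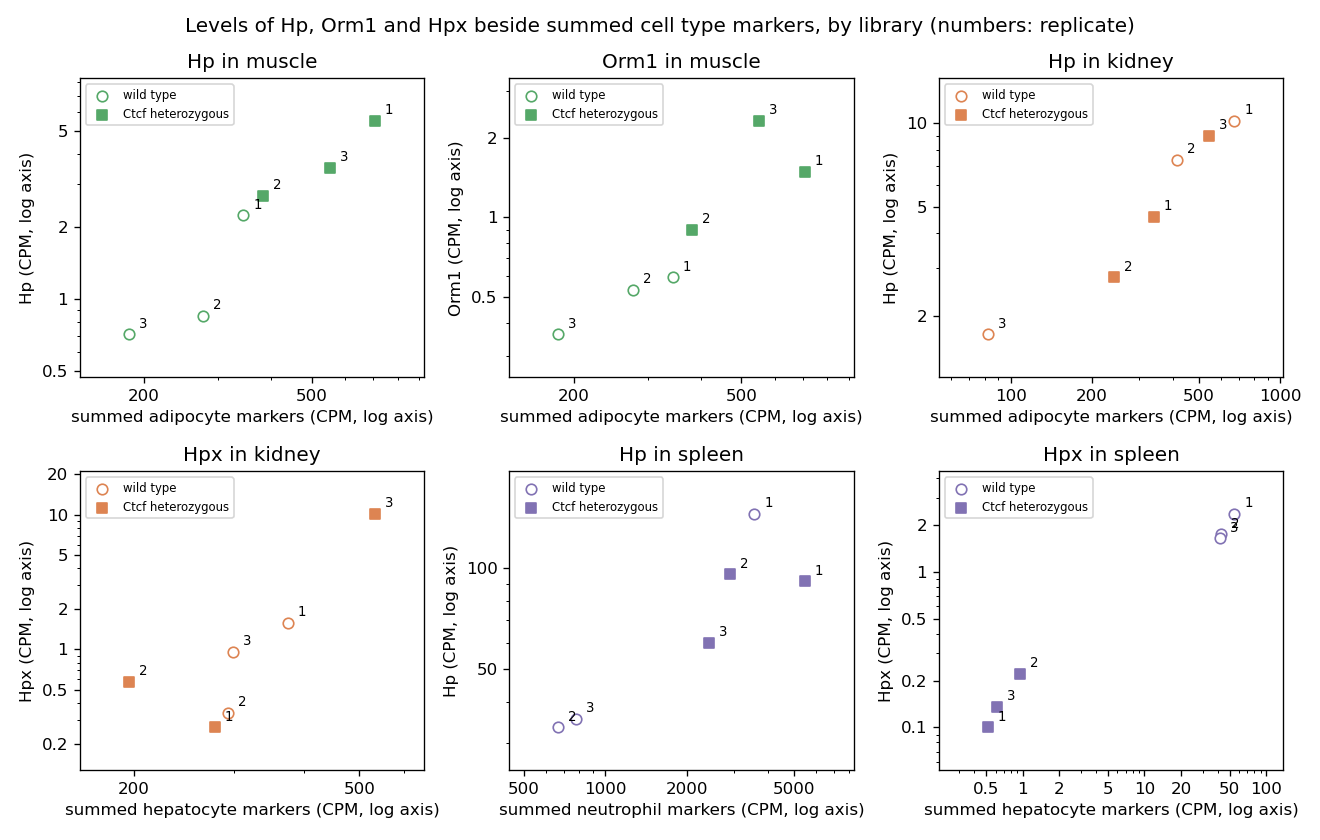
Hp and Orm1 in muscle, Hp and Hpx in kidney and Hp and Hpx in spleen (CPM, log axis) against summed markers of adipocytes, hepatocytes or neutrophils (CPM, log axis), 1 point per library, numbered by replicate, open for wild type and filled for Ctcf heterozygous. In muscle both adipocyte markers and Hp are higher in the heterozygous libraries, and in spleen Hpx and hepatocyte markers fall into the same 2 groups.

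In brain, 4 of the 10 genes were tested, 0 were called and 0 separated the groups, against 0.0157% and 7.83% of all genes tested there. With the paired replicate numbers as a block, 22 in place of 3 of all genes tested in brain were called. At an unadjusted p under 0.05, 0 of the 4 passed, against 2.96% of all genes, and DESeq2 called 0, against 0.162%. The fitted log2 fold change of Mt1 was -0.03 ± 0.0954, with a 95% interval from -0.253 to 0.186, the narrowest of the 5 tissues. Mt2 read 15.5, 17.8 and 17.7 CPM in WT and 16.7, 14.6 and 14.3 CPM in heterozygous brains (log2 fold change -0.16 ± 0.0955). The other 2 were low: Hpx ranged from 0.646 to 0.921 CPM and Hp from 0.405 to 0.525 CPM.

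**Figure D5:**
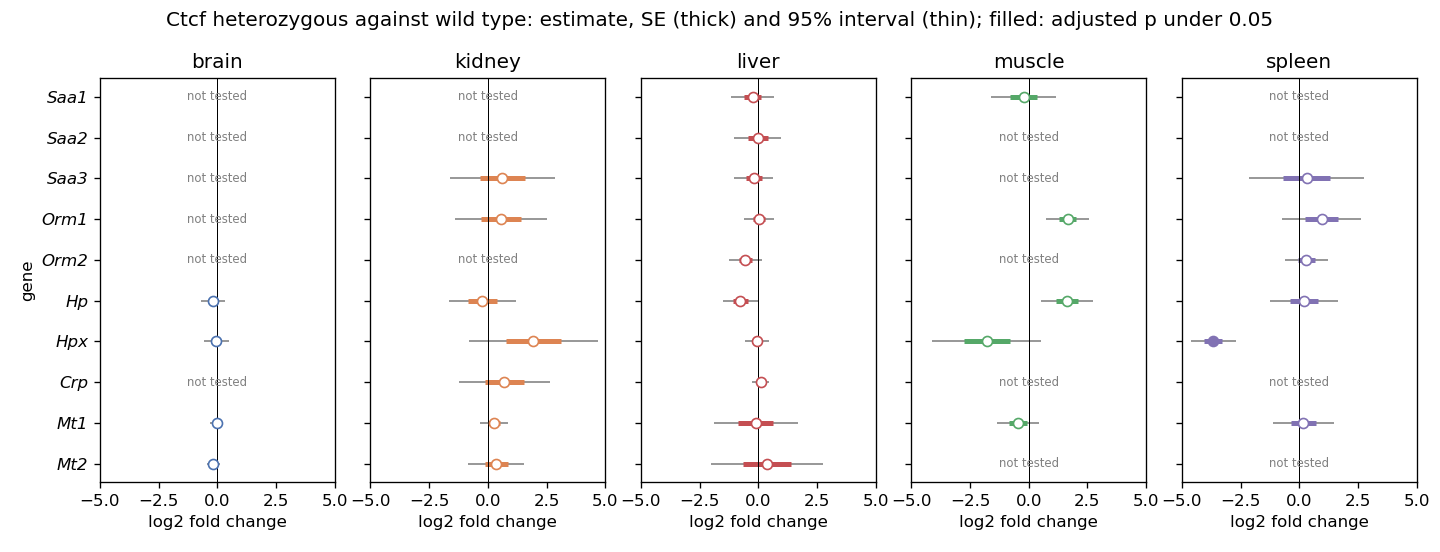
Log2 fold change of heterozygous over wild type for each gene tested in each tissue, with its SE (thick line) and 95% interval (thin line), and a filled point where the adjusted p from edgeR is under 0.05. Only Hpx in spleen is filled, and the interval for Mt1 is narrow in brain and wide in liver.

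Over the 5 tissues together, 0 of the 10 genes had a shared genotype effect, against 0.194% of all genes tested, and the genotype effect of 0 of the 10 differed between tissues, against 0.758% of all genes. The lowest p for a shared effect was that of Orm1 (log2 fold change 0.74 ± 0.317, edgeR adjusted p = 0.703). For a difference between tissues, Hpx came nearest (adjusted p = 0.193), then Crp (adjusted p = 0.677). Libraries of different tissues share mice, which these fits did not model.

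The upstream genes of the response showed no call. Of 12 inducing cytokines and receptors, 8 to 12 were tested per tissue and 0 were called in any. Il6 averaged 0.0506 CPM in WT and 0.05 CPM in heterozygous livers, too low to be tested there. Il1b averaged 3.55 and 4.06 CPM in liver. Of 12 signal carriers and transcription factors, 10 to 12 were tested per tissue and 0 were called. In liver Stat3 averaged 106 and 100 CPM and Socs3, the feedback inhibitor of the interleukin-6 signal, 7.78 and 8.17 CPM. In kidney Socs3 read 4.57, 3.78 and 4.84 CPM in WT and 6.83, 5.42 and 5.69 CPM in heterozygous libraries, separated but with an adjusted p of 0.638, and Jak2 was separated the other way (52.2 and 44.5 CPM, adjusted p = 0.728). Cebpa, a C/EBP factor of liver and fat, read 7.73, 6.67 and 3.57 CPM in WT and 19.0, 10.5 and 14.5 CPM in heterozygous muscles (log2 fold change 1.29 ± 0.308, adjusted p = 0.384), beside the adipocyte markers given above.

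Calls among the other acute phase proteins fell in spleen. Of 22 further positive acute phase proteins, 17 were tested in spleen and 2 were called lower, the fibrinogen chains Fgb (1.65, 1.32 and 1.26 CPM in WT, 0 in all 3 heterozygous spleens) and Fgg (1.01 and 0.0204 CPM on average, adjusted p = 0.0378). In liver 22 were tested and 0 were called, with a median log2 fold change of -0.12. Of 9 negative acute phase proteins, whose synthesis drops in inflammation, 8 were tested in spleen and 5 were called lower: Alb, Ttr, Apoa1, Rbp4 and Ahsg. Over all genes tested in spleen 0.242% were called. Both kinds of list hold mainly hepatocyte products. The hepatocyte markers summed to 42.0 to 54.5 CPM in WT and 0.52 to 0.95 CPM in heterozygous spleens. That sum includes Alb, Ahsg, Apoa1, Fga and Fgb themselves, so it is no separate measure for those genes. The genotype effect differed between tissues in the interaction test for Fga (adjusted p = 0.024), Fgb (0.0373), Fgg (0.0129), Alb (0.0192), Ttr (0.000976) and Rbp4 (0.00185), but not for Apoa1 (0.0764) or Ahsg (0.127). In liver 0 of the 9 were called. Rbp4, the retinol carrier, read 2890, 3100 and 2430 CPM in WT and 2280, 2240 and 2320 CPM in heterozygous livers, separated with an adjusted p of 1. In kidney Ttr, the thyroid hormone carrier, read 35.6, 63.5 and 37.0 against 133, 107 and 146 CPM (log2 fold change 1.51 ± 0.227, adjusted p = 0.132), and Serpina6, the corticosteroid carrier, averaged 1.64 and 12.4 CPM (2.92 ± 0.577, adjusted p = 0.245).

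Partners of the scavengers and metallothioneins were not called in any tissue. All 7 genes of haemoglobin and haem clearance were tested in each tissue and 0 were called. Cd163, the macrophage receptor for haptoglobin bound to haemoglobin, read 12, 16.3 and 8.90 CPM in WT and 6.58, 4.51 and 2.92 CPM in heterozygous livers, a separated pair of groups (log2 fold change -1.40 ± 0.319, edgeR adjusted p = 0.514). The other separated genes of this list were higher in heterozygous libraries. In muscle, WT and heterozygous means were 4.62 and 5.73 CPM for Hmox1 (edgeR adjusted p = 0.714) and 3.39 and 4.92 CPM for Blvrb (0.687). In brain they were 481 and 505 CPM for Lrp1. Of 8 other metallothionein and zinc genes, 5 to 7 were tested per tissue and 0 were called. Mt3, the brain metallothionein, averaged 234 CPM in WT and 212 CPM in heterozygous brain and was 1.30 CPM or less in the other WT tissues. Mtf1 averaged 14.3 and 13.8 CPM in liver, and the zinc exporter Slc30a1 read 38.7, 36.5 and 31.5 against 30.7, 26.2 and 26.3 CPM there (adjusted p = 0.965).

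Of 10 glucocorticoid-responsive genes, 9 or 10 were tested per tissue, and 1 was called, Tat in spleen, where 0.242% of all genes tested were called. Tat, a hepatocyte enzyme of tyrosine breakdown, read 0.996 ± 0.16 CPM in WT and 0 in all 3 heterozygous spleens (edgeR adjusted p = 0.029). The hepatocyte marker sums there, 42.0 to 54.5 against 0.52 to 0.95 CPM, include Tat itself. Nr3c1, the glucocorticoid receptor, averaged 62.8 and 63.4 CPM in liver. Pck1, which makes phosphoenolpyruvate in liver, kidney and fat, read 5.10, 17.1 and 1.99 CPM in WT and 45.5, 25.9 and 29.6 CPM in heterozygous muscles, at 2.06 ± 0.661 in log2 fold change (edgeR adjusted p = 0.559), beside adipocyte marker sums of 344, 276 and 184 against 706, 382 and 551 CPM.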

How the data were processed

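RNA-seq counts of the 30 libraries were taken as deposited: raw fragment counts per gene, 1 table per tissue, which the authors made with featureCounts 1.5.0-p3 on IRFinder alignments, per the file headers. Per those headers the annotation was Ensembl 86 on GRCm38, counting ignored strand, and fragments with several alignments or several genes were not counted. The submitters' processing notes also name FastQC, STAR, DESeq2 and the builds GRCm38 and mm10, with no version. Per the labels' protocols, RNA was extracted with TRIzol, treated with DNase and had a RIN over 7. The deposited tables also give a gene length in bases, the other value used, from which CPM per kilobase was computed.

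Libraries held 49.8 to 131.6 M counts, and 3 counts in a library were taken as the floor that a count of 0 allows. Such limits and intervals cover counting error only, since no molecular identifiers are recorded. The 3 libraries of a group are separate mice per the design.

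Each tissue was fitted alone in R 4.3.3 with edgeR 4.0.16: filterByExpr, TMM and the quasi-likelihood F-test, with p values adjusted by Benjamini-Hochberg over every gene tested and a call at an adjusted p under 0.05. Groups are separated, or do not overlap, when all 3 libraries of 1 lie above all 3 of the other. Fits of all 30 libraries tested shared and tissue-dependent effects, and the 15 WT libraries gave the tissue order. Levels were also compared by 2-sided exact permutation tests. The scripts were tested on simulated data. Alternatives were DESeq2 1.42.0, RLE and total-count scaling, other count filters, a replicate block, a fit of all libraries, and leaving out each library.

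Libraries with the same number deviated together in brain (r = 0.207, 0.383 and 0.537) and kidney (r = 0.209, 0.19 and 0.212), where the numbers were taken as pairs on the data alone. They were not taken as pairs in liver, muscle and spleen, where the lowest r was 0.0512, 0.0829 and -0.472. The genes, lists, motifs and tests were chosen with earlier results of these data known. The rule for naming from the lists took genes called in a tissue. Per list and tissue it also took up to 3 genes of at least 1 CPM with separated groups and the largest fold change. Some genes met the rule, uncalled by edgeR, and are not described above. Osmr in brain, Trf and Hsd11b1 in muscle and Slc39a4 in spleen were higher in heterozygous libraries. C3 in brain and Steap4 and Slc39a14 in liver were lower. A few others were named after their values were seen: Il6, Il1b, Stat3, Mt3, Mtf1, Nr3c1 and Fga, and the markers Adipoq and Alb.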

Additional observations from a re-analysis of the deposited data

Results flagged for a closer look

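For 9 genes of the wider lists the genotype effect differed between tissues in edgeR's interaction test over 30 libraries. Over all 24262 genes tested, 184 (0.758%) passed that test. The adjusted p values were 0.000976 for Ttr, 0.00185 for Rbp4, 0.00245 for Gc, 0.0129 for Fgg, 0.0192 for Alb, 0.024 for Fga, 0.0347 for Serpina6, 0.0373 for Fgb and 0.0419 for Tat. All 9 are products of hepatocytes. The 8 tested in spleen were lower in every heterozygous spleen than in every WT spleen. Serpina6, too low to be tested there, averaged 0.0781 CPM in WT and 0 in heterozygous spleens. The hepatocyte marker sums were 42.0 to 54.5 CPM in WT and 0.52 to 0.95 CPM in heterozygous spleens. They include Alb, Fga, Fgb and Tat themselves, so they are no separate measure for those genes. The part of hepatocyte RNA in these differences was not tested.

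For 2 of them the groups separated in opposite directions. Ttr had a log2 fold change, heterozygous over WT, of 1.51 in kidney and -5.77 in spleen. Rbp4 had -0.30 in liver, 0.77 in muscle and -6.11 in spleen. For each gene, the values above test any difference among the 5 tissues, and single pairs of tissues were not tested.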

How the results depend on the processing

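Of 494 recomputed values for 42 single results, 429 kept their direction and their side of the threshold, 54 changed sign, 8 lost the call and 3 gained it. No result that changed sign had an adjusted p under 0.05. The counts of neighbouring tissue pairs stayed between 15 and 19 around 18, and the counts of 0 genes called in brain, kidney and liver, for a shared effect and for a difference between tissues stayed at 0.

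The 1 call in spleen became 0 with at least 10 counts in every library, in the fit of all 30 libraries and with the replicate block, and ran from 0 to 1 with 1 library left out. For Hpx in spleen the adjusted p over 7 settings ran from 2.21e-16 (DESeq2) to 0.28 (replicate block). The 0 calls in muscle became 1 with the replicate block (Hp, log2 fold change 1.73, adjusted p = 0.0152) and 2 with DESeq2. The replicate block changed no other call among the 10 genes, including in brain and kidney, where the numbers were taken as pairs.

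Signs changed in the fit of all 30 libraries for Hpx (0.026) and Mt1 (0.032) in brain. In liver they changed with total counts for Saa2 (0.086) and Hpx (0.0087), and with the replicate block for Saa2 (0.14), Orm1 (-0.036) and Mt2 (-0.49). In spleen the replicate block gave -0.034 for Mt1. For the shared effect, the replicate block was nested in genotype and took a number as the same mouse in all tissues, which the labels do not say. That block gave 0.045 for Saa2 and -0.21 for Mt2, and total counts gave 0.048 for Orm2. Without liver the shared effect was 0.44 for Orm2, 0.0079 for Mt1 and -0.13 for Mt2, without muscle -0.23 for Hp and 0.086 for Mt1, without spleen 0.21 for Hpx and 0.16 for Crp, and without kidney -0.0696 for Mt2. The cause of each was not tested.

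With 1 library left out, log2 fold changes that crossed 0 ran from -0.20 to 0.085 (Hpx) and -0.10 to 0.069 (Mt1) in brain. In kidney they ran from -0.66 to 1.03 (Orm1), -0.80 to 0.27 (Hp), -1.20 to 2.49 (Hpx), -1.15 to 1.15 (Crp), -0.13 to 0.47 (Mt1) and -0.54 to 0.66 (Mt2). In liver they ran from -0.61 to 0.13 (Saa1), -0.40 to 0.23 (Saa2), -0.51 to 0.14 (Saa3), -0.34 to 0.22 (Orm1), -0.21 to 0.13 (Hpx), -1.80 to 0.35 (Mt1) and -2.15 to 0.97 (Mt2). In muscle Saa1 ran from -0.62 to 0.14, and in spleen Saa3 from -0.90 to 1.09, Hp from -0.14 to 1.26 and Mt1 from -0.66 to 0.47.

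The counts of all genes called also moved, from 3, 4, 3, 4 and 45 (here and below in the order brain, kidney, liver, muscle, spleen). DESeq2 called 28, 164, 73, 159 and 187 genes, a filter of 1 count in any library 6, 45, 16, 66 and 74, the fit of all 30 libraries 1, 13, 37, 229 and 250, and the replicate block 22, 21, 7, 118 and 0. The filter of 10 counts in every library called 2 in kidney and 0 in spleen. With 1 library left out the counts ran 0 to 1, 3 to 56, 1 to 13, 1 to 2 and 0 to 29, the highest in kidney and liver without heterozygous replicate 3. Depth limits Saa1 and Saa2 outside liver, Crp outside liver and kidney, and Mt2 in muscle and spleen, which held few counts. The same holds for Saa3 and Orm2 in brain, kidney and muscle, and for Orm1 in brain.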
